A study of Mus musculus with 32 samples.

Results

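C2C12 cells, a mouse skeletal myoblast line, were compared with and without trichostatin A (TSA) after 4 h in differentiation medium. TSA blocks histone deacetylases that work with a zinc ion. The comparison rests on 4 of the 32 Affymetrix arrays of the series, all those titled for this treatment and time, with 2 arrays of control cells and 2 of TSA-treated cells. They belong to an arm of 20 arrays of control and TSA-treated cells, 2 per group, at 0 h (growth medium) and at 4, 12, 24 and 48 h of differentiation, and the spread of each probe set was estimated over all 20. No genotype or transgene is given for either group, the dose of TSA and the time of its addition are not given in the sources used here, and all values come from 1 cell line. The myoblast factors Myod1 and Myf5 were above 0 on all 4 arrays, at 1447 and 1476 in control and 2644 and 2669 with TSA for Myod1 and 1371 and 1398 in control and 2974 and 2511 with TSA for Myf5. They were 2 of 14 measured myoblast markers, of which 3 rose and 3 fell with TSA, and most values on these arrays were above 0. Nothing in the labels says that the arrays of a group came from separate cultures, and the p-values therefore cover the spread between these samples alone, which may be technical.

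Histone deacetylases remove acetyl groups from histones and from many transcription factors, and blocking them changes the transcription of some genes up and of others down. C2C12 myoblasts divide in growth medium; when serum is withdrawn they leave the cell cycle, and Myod1 and Myf5 hand over to myogenin and to the genes of the contractile apparatus. Cholesterol is made from acetyl-CoA by a chain of enzymes whose genes share control by the sterol regulatory element binding proteins, and the genes of late division share control through promoter elements that are read together with the CCAAT box.

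The promoters of both gene groups are shown first. Many genes of these groups were lower together, and many hold the same short elements next to their start sites. A link between the elements and the fall was not tested. The sequences are the 150 bases upstream of the start, on the strand of the gene, from RefSeq for the build GRCm38.p6. In the sterol synthesis genes below, capitals mark CCAAT on either strand (ATTGG where it is read on the other strand) and the sterol regulatory element TCACNCCAC on either strand. The 4 genes were lower with TSA at 4 h, and their windows lie at chr13:119690201-119690350 (+ strand), chr13:8885456-8885605 (+ strand), chr10:76531455-76531604 (+ strand) and chrX:72918371-72918520 (+ strand).
Hmgcs1: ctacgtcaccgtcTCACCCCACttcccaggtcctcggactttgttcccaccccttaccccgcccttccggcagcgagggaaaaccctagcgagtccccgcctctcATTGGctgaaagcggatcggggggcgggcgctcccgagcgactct
Idi1: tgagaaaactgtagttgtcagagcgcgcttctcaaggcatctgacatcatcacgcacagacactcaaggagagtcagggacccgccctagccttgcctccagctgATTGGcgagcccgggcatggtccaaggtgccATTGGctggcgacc
Lss: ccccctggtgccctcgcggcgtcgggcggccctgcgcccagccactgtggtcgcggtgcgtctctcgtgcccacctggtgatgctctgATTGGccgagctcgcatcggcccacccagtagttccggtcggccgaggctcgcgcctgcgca
Nsdhl: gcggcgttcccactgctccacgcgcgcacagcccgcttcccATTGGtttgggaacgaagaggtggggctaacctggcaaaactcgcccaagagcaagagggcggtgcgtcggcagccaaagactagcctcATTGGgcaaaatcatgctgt
Motifs were counted over the whole RefSeq promoter of each gene, 300 bases from 250 before to 50 after the start, which is longer than the window printed. CCAAT was found there in 15 of the 15 sterol synthesis genes with a promoter in the RefSeq table, the 9 that fell at 4 h among them (5.74% of all probe sets tested were lower), against 41.1% of the 27025 genes of the table and 43.2% of the 4542 tested genes with a promoter there. TCACNCCAC was found in 1 of the 15, Hmgcs1, with its first base 137 bases upstream of the start, against 1.44% of all genes of the table. Of all tested genes with a promoter there, CCAAT was found in 47.4% of the 272 that were lower and 47.3% of the 277 that were higher at 4 h. A match is a description of the letters and was not tied to binding here.

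In the division genes below, capitals mark CCAAT and TTTGAA, each on either strand (TTCAAA where the latter is read on the other strand). TTTGAA is the core of the cell cycle genes homology region, an element of late cell cycle promoters. Cdc20 and Ccnb2 were lower with TSA at 4 h, while Cdk1 and Top2a did not pass the test there, so that the 4 sequences set both kinds side by side. Their windows lie at chr4:118437344-118437493, chr9:70421555-70421704, chr10:69352913-69353062 and chr11:99024190-99024339, all on the - strand.
Cdc20: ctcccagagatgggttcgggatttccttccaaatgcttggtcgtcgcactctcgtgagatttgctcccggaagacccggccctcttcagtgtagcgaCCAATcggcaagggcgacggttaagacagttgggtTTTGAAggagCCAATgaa
Ccnb2: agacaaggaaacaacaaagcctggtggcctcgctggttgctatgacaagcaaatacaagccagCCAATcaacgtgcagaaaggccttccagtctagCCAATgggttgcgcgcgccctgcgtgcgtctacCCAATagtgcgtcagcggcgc
Cdk1: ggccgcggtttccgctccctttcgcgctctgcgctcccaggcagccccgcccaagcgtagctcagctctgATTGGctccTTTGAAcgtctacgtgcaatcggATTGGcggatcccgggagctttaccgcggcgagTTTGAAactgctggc
Top2a: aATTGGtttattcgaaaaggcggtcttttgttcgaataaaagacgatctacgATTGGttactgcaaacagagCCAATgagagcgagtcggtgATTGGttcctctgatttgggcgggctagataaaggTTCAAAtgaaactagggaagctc
Over the same 300 bases TTTGAA was found in 23 of the 31 mitosis and cytokinesis genes with a promoter in the table (74.2%), against 20.2% of all genes of the table and 14.6% of the tested genes. Of the 15 such genes that were lower at 4 h and have an entry, 10 held it (66.7%), a smaller share than in the whole list. Of all lowered genes 19.9% held it, and of all raised genes 10.8%. CCAAT was also found in 23 of the 31 and in 10 of the 15. In Ccnb2 the window held 3 CCAAT matches, 87, 54 and 21 bases upstream, and no TTTGAA, which says only that these letters are not in this window. 

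TSA changed the level of 670 of the 5636 genes tested after 4 h, 337 upwards and 333 downwards. Over the 7453 probe sets tested, 846 passed (11.4%), of which 418 were higher with TSA (5.61%) and 428 lower (5.74%). A gene passed with an adjusted p under 0.05 in the fit of all 20 arrays with limma, and p-values were adjusted over all probe sets by the Benjamini-Hochberg method. Each gene is given by its probe set of highest mean, of 897 genes with several tested probe sets none had passing probe sets of opposite sign, and intensities are the deposited values on a linear scale. Log2 changes are TSA minus control with their standard errors (n = 2 each), taken after values below 0 were set to 0 and 137.689 was added, so that they understate the change of dim genes. All 670 genes had groups that did not overlap, as did 54.5% of all probe sets tested, and the median log2 change over all genes was -0.04. The 4 arrays were even in scale, with medians of 269 to 287 and 21.3% to 22.2% of values at or below 0. The Spearman correlation was 0.958 between the controls, 0.935 between the TSA arrays and 0.889 to 0.912 between treatments, and the 3' probe set of Gapdh over its 5' probe set gave 0.844 and 0.892 in control and 0.739 and 0.838 with TSA, a difference whose part in the results was not tested. Fitted on these 4 arrays alone 81 probe sets passed, at most 5 of them in any list described below, and leaving out 1 array left 435 (without control array 1), 473 (control array 2), 522 (TSA array 1) or 584 (TSA array 2).

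**Figure D1:**
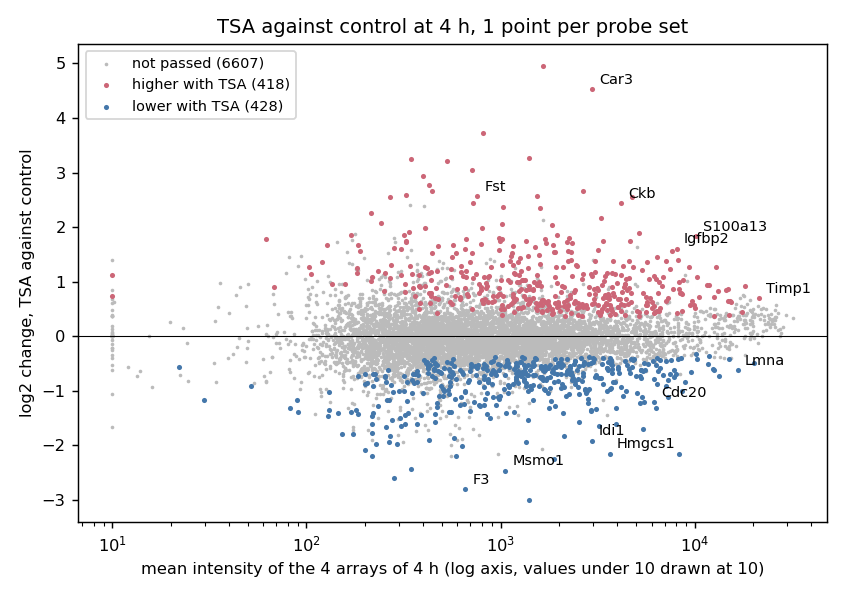
Log2 change with TSA at 4 h (vertical axis) against the mean intensity of the 4 arrays (horizontal log axis), 1 point per probe set tested. The 418 probe sets that were higher and the 428 that were lower with TSA are coloured, and genes named in the text are labelled, from Car3 at the top to F3 near the bottom.

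Most measured genes of cholesterol synthesis were lower with TSA. Of 18 measured genes of the list 12 fell, 0 rose and 6 did not pass, where 5.91% of all genes fell and 5.98% rose. The median log2 change of the 18 was -1.19. At the entry, Hmgcs1 joins acetyl-CoA units to hydroxymethylglutaryl-CoA. Its intensity was 6221 and 5873 in control and 1489 and 1056 with TSA (log2 change -2.15 ± 0.16, adjusted p = 5.79e-06). Mvd, which makes isopentenyl diphosphate, stood at 693 and 564 in control and 113 and 115 with TSA (log2 change -1.60 ± 0.20, adjusted p = 0.000260), and Idi1, which turns it into its isomer, at 4812 and 4691 in control and 1200.5 and 1126 with TSA (log2 change -1.91 ± 0.13, adjusted p = 4.05e-06). In each of these 3 genes both control arrays lay far above both TSA arrays. Mvk, the kinase between them, differed little, at 1613 and 1609 in control and 1552 and 1478 with TSA (log2 change -0.08 ± 0.21, adjusted p = 0.872). At the branch to sterols Fdps changed by -0.80 ± 0.13 on the log2 scale (adjusted p = 0.00179) and Fdft1, squalene synthase, by -1.32 ± 0.13 (adjusted p = 3.26e-05), while Ggps1, which leads away from sterols to geranylgeranyl groups, was at -0.37 ± 0.20 (adjusted p = 0.276).

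Of 11 measured genes from squalene to cholesterol 7 fell and 4 did not pass, where 5.91% of all genes fell. Lss, which closes the ring system, stood at 919 and 1167 in control and 201 and 58.3 with TSA (log2 change -2.19 ± 0.21, adjusted p = 3.57e-05). Msmo1, the sterol methyl oxidase, stood at 1902 and 1849 in control and 365 and 127 with TSA (log2 change -2.46 ± 0.28, adjusted p = 0.000134). In both genes the TSA arrays were uneven, and all lay far below the controls. Sqle (squalene epoxidase, -1.37 ± 0.13, adjusted p = 3.32e-05), Lbr (a sterol reductase that also anchors chromatin at the nuclear envelope, -1.40 ± 0.25, adjusted p = 0.00307) and Nsdhl (a sterol dehydrogenase, -1.23 ± 0.13, adjusted p = 7.62e-05) fell by similar amounts, and all 3 probe sets of Nsdhl passed. Cyp51, the lanosterol demethylase, changed less (log2 change -0.55 ± 0.14, adjusted p = 0.0267), and its call was lost without control array 1 (adjusted p = 0.0983), control array 2 (0.138) or TSA array 2 (0.175). Sc5d (log2 change -1.16 ± 0.28, adjusted p = 0.0199) lost its call without any 1 of the 4 arrays (0.0583 to 0.137). The genes that did not pass after squalene were Tm7sf2 (-0.01), Hsd17b7 (-0.39), Ebp (-0.20) and Dhcr7 (-0.38 on the log2 scale). Fitted on the 4 arrays alone 5 sterol genes passed. Effects at 4 h and at 0 h did not differ past the threshold for any of the 18 genes, and at 12 h the effect on Hmgcs1 was smaller by 1.13 ± 0.23, adjusted p = 0.0366, a difference lost in 7 of the 8 fits that left out 1 array.

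**Figure D2:**
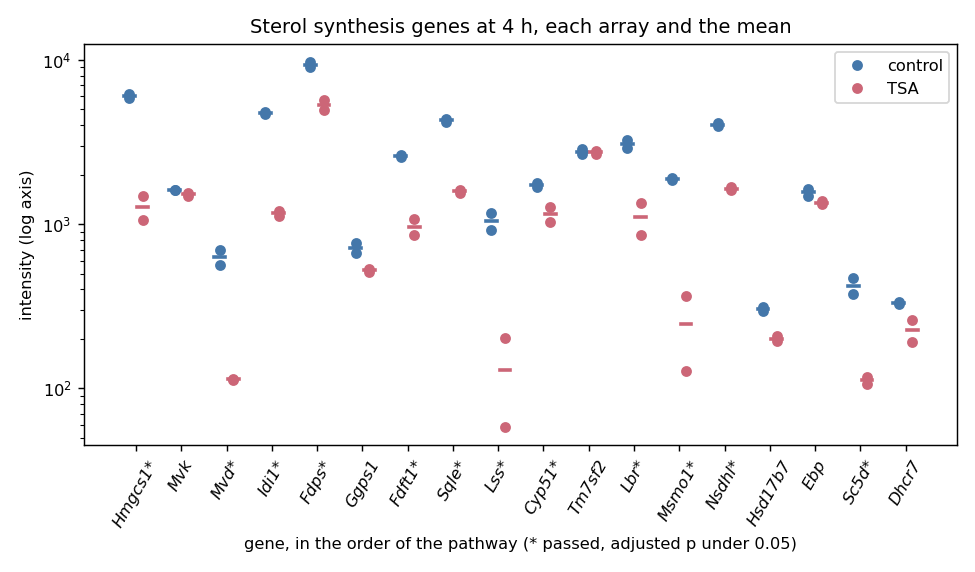
Intensity (log axis) of the 18 sterol synthesis genes at 4 h in the order of the pathway, each point 1 array and each bar the mean of 2. For the 12 genes with an asterisk the TSA points lie below the control points and the adjusted p was under 0.05; Mvk and Tm7sf2 lie level.

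Fatty acid synthesis moved the same way in fewer genes. Of 12 measured genes 5 fell and 0 rose, with a median of -0.40, where 5.91% of all genes fell. Elovl6, which lengthens palmitate, stood at 757 and 811 in control and 301 and 309 with TSA (log2 change -1.06 ± 0.21, adjusted p = 0.00544), and its call held without any 1 array. The calls of Fasn, Fads1, Acly and Elovl5 did not hold throughout: the count was 2 without control array 1, 1 without control array 2, 3 without TSA array 1 and 2 without TSA array 2. Of 8 genes of sterol uptake and control 3 were lower (Vldlr, Srebf1 and Npc1) and 0 higher. The median log2 change of the 8 was -0.00099, with 4 genes below 0 and 4 above. None of the 3 calls held throughout when the same arrays were left out in turn.

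Genes of mitosis and cytokinesis were lower with TSA, without exception among those that passed. Of 37 measured genes 19 fell, 0 rose and 18 did not pass, where 5.91% of all genes fell and 5.98% rose. The median log2 change of the 37 was -0.70. Anln, an actin-binding protein of the cleavage furrow, stood at 5786 and 5581 in control and 2100.3 and 2299 with TSA (log2 change -1.32 ± 0.14, adjusted p = 9.73e-05). Cyclin B2, Ccnb2, stood at 6891 and 7785 in control and 3076 and 3062 with TSA (log2 change -1.22 ± 0.15, adjusted p = 0.000285). Cdc20, the activator of the anaphase-promoting complex, stood at 7741 and 9717 in control and 3779 and 3570.2 with TSA (log2 change -1.21 ± 0.16, adjusted p = 0.000426). In all 3 genes both controls lay well above both TSA arrays. The kinases Nek2 (-0.91 ± 0.12, adjusted p = 0.000334), Bub1 (-0.97 ± 0.16, 0.00206) and Aurka (-0.77 ± 0.13, 0.00226), the spindle protein Tacc3 (-0.97 ± 0.14, 0.000822) and the phosphatase Cdc25c (-1.26 ± 0.22, 0.00220) fell too. The count was 13 without either control array, 11 without TSA array 1 and 16 without TSA array 2, and 1 when the 4 arrays were fitted alone. In bulk samples fewer dividing cells and less RNA per cell cannot be told apart.

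In growth medium the same list had been lower with TSA in 37 of 37 genes, where 10.4% of all genes were lower, so the 2 times were compared directly. The TSA effect at 4 h minus that at 0 h passed for 120 of 7453 probe sets (1.61%), 88 of them higher at 4 h (1.18%) and 32 lower (0.429%). It was higher at 4 h for 9 mitosis genes and lower for none. Cdk1, the kinase that drives entry into mitosis, had stood at 6419.5 and 5089.9 in control and 1731 and 1846 with TSA at 0 h, and at 4 h stood at 5232 and 5230.3 in control and 5600.2 and 5567 with TSA. The groups were well apart at 0 h and at 4 h lay close together, with TSA slightly above. The log2 effect was -1.60 ± 0.17 at 0 h and 0.09 ± 0.17 at 4 h, a difference of 1.70 ± 0.24, adjusted p = 0.00688. Mad2l1, of the spindle checkpoint, gave -1.43 ± 0.12 at 0 h and -0.29 ± 0.12 at 4 h (difference 1.14 ± 0.17, adjusted p = 0.00784). Cdc20 was still low at 4 h but less so than at 0 h (difference 1.33 ± 0.23, adjusted p = 0.0169). Hmgb2, a chromatin protein of dividing cells, stood at 10343 and 7905 in control and 1816 and 1802 with TSA at 0 h, and at 5834 and 7079 in control and 6100.5 and 6529 with TSA at 4 h (difference 2.21 ± 0.27, adjusted p = 0.00522). The differences of Cdk1, Mad2l1 and Hmgb2 passed in each fit that left out 1 array, whereas that of Cdc20 was lost in 4 of 8 such fits. The count of mitosis genes with a difference was 3 without control array 1 and 4 without control array 2 or TSA array 1 of 0 h, 4 without control array 1, 6 without control array 2 and 5 without TSA array 2 of 4 h, 9 without TSA array 2 of 0 h or TSA array 1 of 4 h, and 0 with only the 8 arrays in the fit.

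Of 41 measured genes of DNA replication, which precedes mitosis, 5 rose and 1 fell, with a median of 0.12, where 5.98% of all genes rose and 5.91% fell. In growth medium 18 had been lower and 0 higher (8.45% of all genes were higher there). Rpa2, a subunit of the protein that coats single-stranded DNA, stood at 153 and 213 in control and 692 and 583 with TSA (log2 change 1.28 ± 0.22, adjusted p = 0.00226), and both TSA arrays were well above both controls. Its call was lost on a generalized log2 scale that keeps values below 0 (adjusted p = 0.104). The calls of Rfc3, Rrm2, Pcna and Cdt1, all higher, were less stable: the count of raised genes was 1 without either control array and 2 without either TSA array. Pola2, a subunit of the primase complex, was the gene that fell; both TSA arrays were at or below 0, and the call was lost without control array 2 (adjusted p = 0.205), TSA array 1 (0.111) or TSA array 2 (0.101). The call of Rpa2 for a higher TSA effect at 4 h than at 0 h was lost whenever 1 array was left out. Rpa2 was among 4 replication genes with such a difference past the threshold. That count was 0 without any 1 of the control arrays of either time or TSA array 2 of 4 h, 1 without TSA array 1 of 0 h, and 2 without TSA array 1 of 4 h or TSA array 2 of 0 h.

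**Figure D3:**
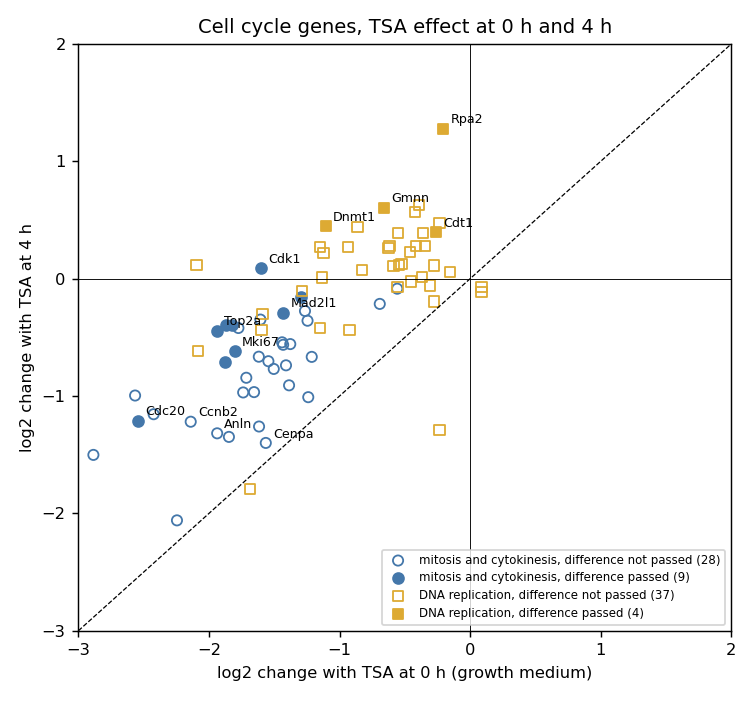
Log2 effect of TSA at 4 h (vertical axis) against that at 0 h (horizontal axis) for 37 mitosis and 41 DNA replication genes, 1 point per gene; the dashed line marks equal effects, and filled points are genes whose effect differed between the times past the threshold (9 and 4). Most points lie above the line, with mitosis genes such as Cdc20 still below 0 at 4 h and replication genes around 0.

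Among the genes that TSA raised most were several known from other tissues, and 2 of the muscle metabolism list, Car3 and Ckb. They were the only genes of the 12 measured there that rose, and 0 fell, where 5.98% of all genes rose. Car3, carbonic anhydrase 3 of muscle and fat, stood at -34.3 and 324 in control and 6666 and 4871 with TSA (log2 change 4.53 ± 0.48, adjusted p = 7.35e-05), and Car2, the carbonic anhydrase of red cells and bone, at 324 and 364 in control and 2923 and 2558 with TSA (log2 change 2.58 ± 0.26, adjusted p = 4.52e-05). Ckb, the brain form of creatine kinase, stood at 1214 and 1201 in control and 7424 and 6878 with TSA (log2 change 2.44 ± 0.13, adjusted p = 5.24e-07). In all 3 genes both TSA arrays lay far above both controls, and the Car3 arrays of each treatment were less even than those of Ckb. Pfn2, a profilin of neurons that regulates actin, stood at -68.1 and 20.1 in control and 1005 and 753 with TSA (log2 change 2.78 ± 0.21, adjusted p = 5.79e-06). Uchl1, a ubiquitin hydrolase of neurons, stood at 368 and 477 in control and 3507 and 2067 with TSA (log2 change 2.35 ± 0.38, adjusted p = 0.00150), and Hba-a1, alpha globin, at 28.9 and 342 in control and 3058 and 2188 with TSA (log2 change 3.27 ± 0.58, adjusted p = 0.00262). The TSA arrays of these 3 genes were uneven, and none overlapped with control. Sprr1a, a cornified envelope protein of keratinocytes, stood at 137 and -221 in control and 1392 and 1536 with TSA (log2 change 3.04 ± 0.50, adjusted p = 0.00173), a call also lost on the generalized scale (adjusted p = 0.0566). Chchd10 (a mitochondrial protein), Igfbp3, Syngr1 (a synaptic vesicle protein) and Pmm1 (a mannose phosphate enzyme) were at or below 0 on both control arrays, so no fold is given. Chchd10 reached 2287 and 1222 with TSA (adjusted p = 0.000500), Syngr1 1017 and 827 (adjusted p = 0.00246) and Pmm1 755 and 639.97 (adjusted p = 0.00497).

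Among the genes with the largest rise in intensity was S100a13, a calcium-binding protein of non-classical secretion, at 4855 and 3941 in control and 16110.2 and 15724 with TSA (log2 change 1.83 ± 0.12, adjusted p = 4.05e-06). Myl12b, a regulatory light chain of non-muscle myosin, stood at 7536 and 7509.8 in control and 19523 and 17077 with TSA (log2 change 1.26 ± 0.12, adjusted p = 3.46e-05), and Nes, the intermediate filament nestin of precursor cells, at 10541 and 9959 in control and 18096 and 19157 with TSA (log2 change 0.85 ± 0.12, adjusted p = 0.000459). Hcfc1r1, a regulator of the nuclear factor HCF-1, stood at 4049 and 3538 in control and 11404 and 11642 with TSA (log2 change 1.57 ± 0.11, adjusted p = 4.05e-06). In all 4 genes the control and TSA arrays were far apart. Atox1, a copper chaperone, rose by 1.26 ± 0.15 (adjusted p = 0.000190) and Crip1, a small LIM protein, by 0.91 ± 0.15 (adjusted p = 0.00161).

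The insulin-like growth factor binding proteins Igfbp2 and Igfbp3 and follistatin, secreted regulators of muscle growth, were among the raised genes. Igfbp2 stood at 3859.9 and 4001 in control and 12389 and 12142 with TSA (log2 change 1.61 ± 0.12, adjusted p = 5.74e-06), and Igfbp3 at -120.4 and -71.4 in control and 1299.6 and 1002 with TSA (adjusted p = 4.58e-05). Of 10 measured genes of the insulin-like growth factor axis these 2 rose and 0 fell, where 5.98% of all genes rose. Follistatin, Fst, which binds and blocks activin and myostatin, stood at 99.6 and 144 in control and 1386 and 1400.1 with TSA (log2 change 2.56 ± 0.19, adjusted p = 5.74e-06). The TSA arrays were nearly equal and far above either control. Tgfb3, a growth factor of the TGF-beta family (log2 change 0.94 ± 0.13, adjusted p = 0.000681), and Dcn, the proteoglycan decorin that binds TGF-beta (log2 change 1.13 ± 0.20, adjusted p = 0.00294), rose as well, 3 of 27 genes of that axis in all, and myostatin itself (Mstn) was at 0.07 ± 0.34 (adjusted p = 0.940).

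**Figure D4:**
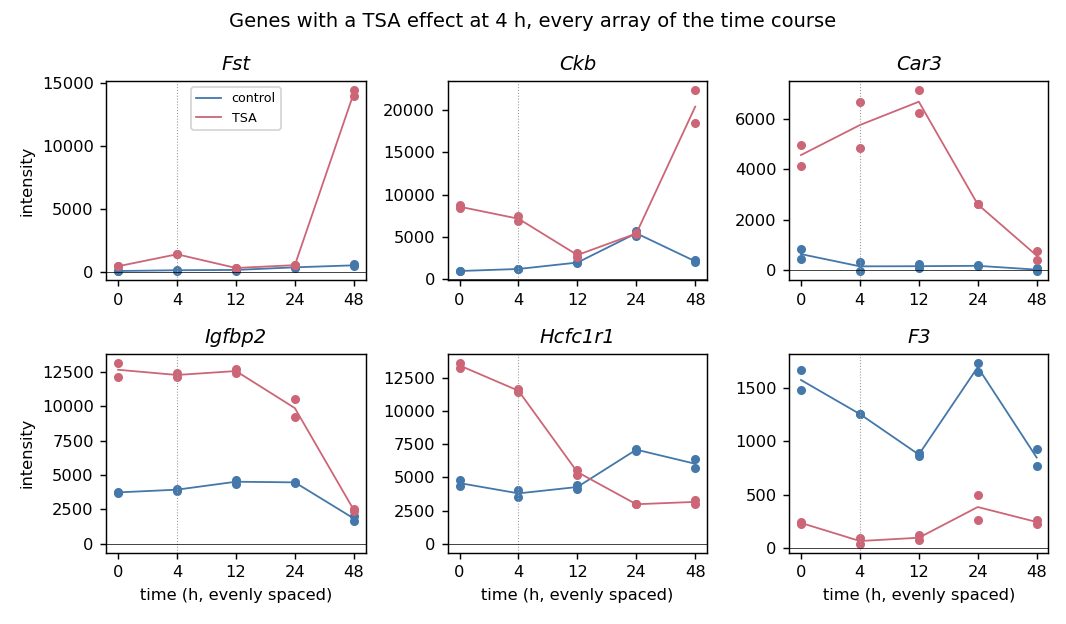
Intensity of 6 genes that changed with TSA at 4 h over the whole time course, each point 1 array and lines through the means of 2; the dotted line marks 4 h and times are evenly spaced. Fst, Ckb, Car3, Igfbp2 and Hcfc1r1 are higher and F3 is lower with TSA at 4 h, and the gaps of Fst, Ckb and Hcfc1r1 had closed or shrunk by 12 h.

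Tissue factor, F3, the cell-surface starter of blood clotting, had the largest log2 fall of the genes that passed. It stood at 1258 and 1253 in control and 88.6 and 37.7 with TSA (log2 change -2.81 ± 0.20, adjusted p = 4.36e-06). Cadm1, a cell adhesion molecule, stood at 5699 and 6329 in control and 1976 and 1768 with TSA (log2 change -1.61 ± 0.10, adjusted p = 1.52e-06), and all 3 of its probe sets passed. Tmem170, a membrane protein, stood at 532 and 476 in control and 30.5 and 30.6 with TSA (log2 change -1.93 ± 0.22, adjusted p = 0.000108). In each of these 3 genes both TSA arrays lay far below both controls. Bcl7c, a subunit of chromatin remodelling complexes, changed by -2.08 ± 0.34 (adjusted p = 0.00172), and Tnnt1, the troponin T of slow fibres, stood at 465 and 502 in control and 45.8 and -100.2 with TSA (log2 change -1.97 ± 0.18, adjusted p = 2.27e-05). A second probe set of Tnnt1 was at -0.26 and did not pass (adjusted p = 0.37). Shmt2, the mitochondrial enzyme that turns serine into glycine, was at 718 and 679 in control and -190.5 and -75.8 with TSA (adjusted p = 0.000630), and its call held in the alternatives that left out an array. Ahcy, which breaks down S-adenosylhomocysteine after methyl transfer, stood at 9584 and 8496 in control and 3564 and 3541 with TSA (log2 change -1.31 ± 0.20, adjusted p = 0.000910). Of 10 genes of serine, glycine and folate metabolism these 2 fell and 0 rose, where 5.91% of all genes fell. Among the genes with the largest fall in intensity Lmna, the nuclear lamins A and C, stood at 20964 and 19533 in control and 13297 and 12988 with TSA (log2 change -0.62 ± 0.11, adjusted p = 0.00230), and both its probe sets passed. Pcolce, an enhancer of procollagen cleavage (log2 change -1.11 ± 0.18, adjusted p = 0.00187), Hdgf, a nuclear growth factor (log2 change -1.20 ± 0.19, adjusted p = 0.00152), and Hnrnph1, a splicing factor (log2 change -1.04 ± 0.11, adjusted p = 5.02e-05), also fell.

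Of 13 measured myogenic factors 2 rose and 1 fell, while of 16 inhibitors of myogenesis 5 rose and 0 fell. Over all genes 5.98% rose and 5.91% fell. Myf5 (log2 change 0.92 ± 0.18, adjusted p = 0.00456) and Myod1 (log2 change 0.81 ± 0.11, adjusted p = 0.000383) rose, and neither overlapped between treatments in the values given above. Mef2d, a partner of the myogenic factors, stood at 2374 and 1853 in control and 1055 and 1057 with TSA (log2 change -0.91 ± 0.16, adjusted p = 0.00269). Myogenin, Myog, was uneven, at 203 and 849 in control and 772 and 457 with TSA, with overlapping groups (log2 change 0.34 ± 0.44, adjusted p = 0.698). Among the inhibitors Id2, which binds the partners of Myod1, stood at 1760.4 and 1535 in control and 4792 and 4248 with TSA (log2 change 1.38 ± 0.25, adjusted p = 0.00325). From 0 to 4 h 1.09% of probe sets rose and 0.966% fell in control cells. Id2 dropped there from 5428 and 4434 at 0 h (log2 change -1.50 ± 0.25, adjusted p = 0.0103), and in TSA-treated cells the change from 0 h was -0.48 ± 0.25, adjusted p = 0.353. The difference of these changes did not pass (1.02 ± 0.36, adjusted p = 0.219). Bhlhe40, a repressor of the helix-loop-helix family, stood at 1152 and 1063 in control and 3418 and 3613 with TSA (log2 change 1.55 ± 0.15, adjusted p = 4.52e-05), and Hes6, of the Hairy family, rose by 0.83 ± 0.15 (adjusted p = 0.00246). Id1 (0.60 ± 0.25, adjusted p = 0.160) and Id3 (0.07 ± 0.34, 0.940) did not pass. The count of raised inhibitors was 3 without any 1 of control array 1, control array 2 and TSA array 1, since Hey1 and Zeb1 lost their calls there.

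Among the inhibitors of the cyclin-dependent kinases Cdkn1c rose. Cdkn1c, p57, stood at 129 and 151 in control and 441 and 502 with TSA (log2 change 1.13 ± 0.21, adjusted p = 0.00413). Cdkn1a, p21, was uneven within both groups, at 487 and 1964 in control and 2824 and 1037 with TSA (log2 change 0.70 ± 0.54, adjusted p = 0.480). Of 22 genes of cell cycle exit 2 rose and 2 fell, where 5.98% of all genes rose and 5.91% fell. Those that rose were Cdkn1c and Gadd45a (1.23 ± 0.22, adjusted p = 0.00252). Those that fell were Tob1, an antiproliferative protein (log2 change -1.15 ± 0.18, adjusted p = 0.00111), and Cdkn2d, p19 (log2 change -2.01 ± 0.44, adjusted p = 0.0107). Cdkn2d lost its call without control array 2 (adjusted p = 0.0853) or TSA array 2 (0.0527).

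Of 20 adhesion genes of myoblasts 5 rose and 1 fell, where 5.98% of all genes rose and 5.91% fell. Ncam1, the neural cell adhesion molecule that myoblasts use in fusion, stood at 2418 and 2581 in control and 6413 and 7036 with TSA (log2 change 1.38 ± 0.13, adjusted p = 2.20e-05). M-cadherin, Cdh15, stood at 2852 and 2867 in control and 4381 and 5333 with TSA (log2 change 0.73 ± 0.12, adjusted p = 0.00153). Vcam1, a partner of integrins, was the gene that fell, at 2232 and 2386 in control and 1019 and 1170.1 with TSA (log2 change -0.99 ± 0.13, adjusted p = 0.000319). Itgb5, an integrin subunit, passed by 1 probe set (log2 change 2.67 ± 0.40, adjusted p = 0.000910), while another of its probe sets was at 0.04 (adjusted p = 0.94). Without control array 1 the count of raised genes was 3. Of 26 contractile genes 2 were higher and 1 lower (Tnnt1), a share near that of all genes (11.9% in either direction). Tnni1, the slow troponin I, stood at -179 and 53.4 in control and 471 and 625 with TSA (log2 change 2.07 ± 0.34, adjusted p = 0.00162). The count of raised contractile genes was 3 without control array 2 and 1 without any other array. Of 15 genes of excitation and contraction, the acetylcholine receptor subunit Chrng (log2 change -1.40 ± 0.23, adjusted p = 0.00188) and its clustering protein Rapsn (log2 change -0.88 ± 0.17, adjusted p = 0.00448) fell and 0 rose.

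Of 46 measured matrix genes 7 rose and 3 fell, where 5.98% of all genes rose and 5.91% fell. The share that fell was near that of all genes. Hyaluronan synthase Has2 stood at 1477 and 1579 in control and 4698 and 5025 with TSA (log2 change 1.59 ± 0.18, adjusted p = 0.000101), and the hyaluronan-binding proteoglycan versican, Vcan, at 1097 and 812 in control and 3503 and 3437 with TSA (log2 change 1.74 ± 0.17, adjusted p = 4.48e-05). Ccn2, connective tissue growth factor, stood at 630.2 and 602 in control and 5233 and 4128 with TSA (log2 change 2.67 ± 0.21, adjusted p = 6.04e-06). In each of these 3 genes both TSA arrays were well above both controls. Fbln2, fibulin 2, rose by 1.05 ± 0.15 (adjusted p = 0.000822). Fibrillar collagen Col3a1 fell, at 10118 and 9549 in control and 5702 and 5977 with TSA (log2 change -0.74 ± 0.13, adjusted p = 0.00326). The other lowered genes were Col6a3 and Nid2, and the lowered genes numbered 1 without either control array and 6 without TSA array 1. Ccn1, a close relative of Ccn2, was at -0.13 ± 0.38 (adjusted p = 0.887).

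Some genes of the immediate early response and of stress defence rose, where 5.98% of all genes rose and 5.91% fell. Of 29 immediate early genes 6 rose and 1 fell (Fosl1, lost without control array 2, adjusted p = 0.122, or TSA array 1 or 2, 0.0817 and 0.0606). Ptgs2, cyclooxygenase 2, stood at 864 and 996 in control and 3816 and 3369 with TSA (log2 change 1.80 ± 0.30, adjusted p = 0.00190), the kinase Plk2 at 3115 and 3195 in control and 7522 and 7521 with TSA (log2 change 1.22 ± 0.13, adjusted p = 7.78e-05) and the phosphatase Dusp1, which shuts off MAP kinases, at 407 and 359 in control and 1636 and 1575 with TSA (log2 change 1.74 ± 0.29, adjusted p = 0.00194). Fos (0.41 ± 0.24, adjusted p = 0.346), Egr1 (0.18 ± 0.32, 0.808) and Myc (0.24 ± 0.16, 0.412) did not pass. Several glutathione transferases, which detoxify reactive compounds, rose: Gstm1, at 4633 and 4010.02 in control and 8013 and 9607 with TSA (adjusted p = 0.00152), Gsto1 by 0.80 ± 0.11 (0.000404), Gstp1 by 0.65 ± 0.12 (0.00461) and the microsomal Mgst1 by 1.13 ± 0.24 (0.00903), while Gstm2 (0.25 ± 0.30, 0.684) and Gstm5 (0.04 ± 0.13, 0.914) did not pass. The call of Mgst1 was lost without control array 2 (adjusted p = 0.0657) or TSA array 2 (0.0501). Of 29 genes of the oxidative stress list 6 rose and 1 fell, Nfe2l2 (log2 change -0.41 ± 0.12, adjusted p = 0.0488), whose call was lost without any 1 of the 4 arrays (adjusted p 0.128 to 0.187). Txnip, the thioredoxin inhibitor, stood at 211 and 305 in control and 1169.5 and 948 with TSA (log2 change 1.60 ± 0.21, adjusted p = 0.000363). Il1r1, the interleukin 1 receptor, fell (log2 change -1.37 ± 0.18, adjusted p = 0.000422).

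The class I antigen presentation genes H2-K1 and H2-D1 were higher with TSA, where 5.98% of all genes were higher. H2-K1 stood at 4268 and 4731 in control and 12153 and 11859 with TSA (log2 change 1.39 ± 0.11, adjusted p = 9.86e-06) and H2-D1 at 3271 and 3381 in control and 8903 and 9929 with TSA (log2 change 1.46 ± 0.11, adjusted p = 5.74e-06), and in neither gene did the groups overlap. Both probe sets are of a kind that can bind several related genes, and another probe set of H2-K1 was at -0.40 and did not pass (adjusted p = 0.43). With B2m, their shared light chain, 3 of 16 genes of the list rose and 0 fell; B2m (log2 change 0.58 ± 0.12, adjusted p = 0.00726) lost its call without control array 2 (adjusted p = 0.0799) or TSA array 1 (0.0735).

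Of 15 genes of deacetylases and acetylases 1 rose (Sirt2) and 2 fell (Hdac5 and Hdac7), where 11.9% of all genes passed in either direction, and none of these calls held without every array: the count that rose was 0 without any 1 array, and the count that fell was 1, or 0 without control array 2. Hdac1, a main target of TSA, was at 0.36 ± 0.21 (adjusted p = 0.347). Of 13 genes that deacetylase inhibitors are known to raise elsewhere 4 rose and 0 fell, where 5.98% of all genes rose. The median was 0.49, and 5 of the 13 had a log2 change below 0. This list too was chosen with earlier results of these data known. Those that rose were Ccn2, Txnip, Clu (clusterin, log2 change 1.30 ± 0.21, adjusted p = 0.00152) and Gsn (gelsolin, an actin-severing protein, log2 change 0.80 ± 0.12, adjusted p = 0.000822). The linker histone H1f2 stood at 1146 and 1161 in control and 4008 and 2599 with TSA (log2 change 1.38 ± 0.25, adjusted p = 0.00337), and H2ax, the histone variant that marks DNA breaks, at 4795 and 5013 in control and 2629 and 2276 with TSA (log2 change -0.96 ± 0.12, adjusted p = 0.000312).

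**Figure D5:**
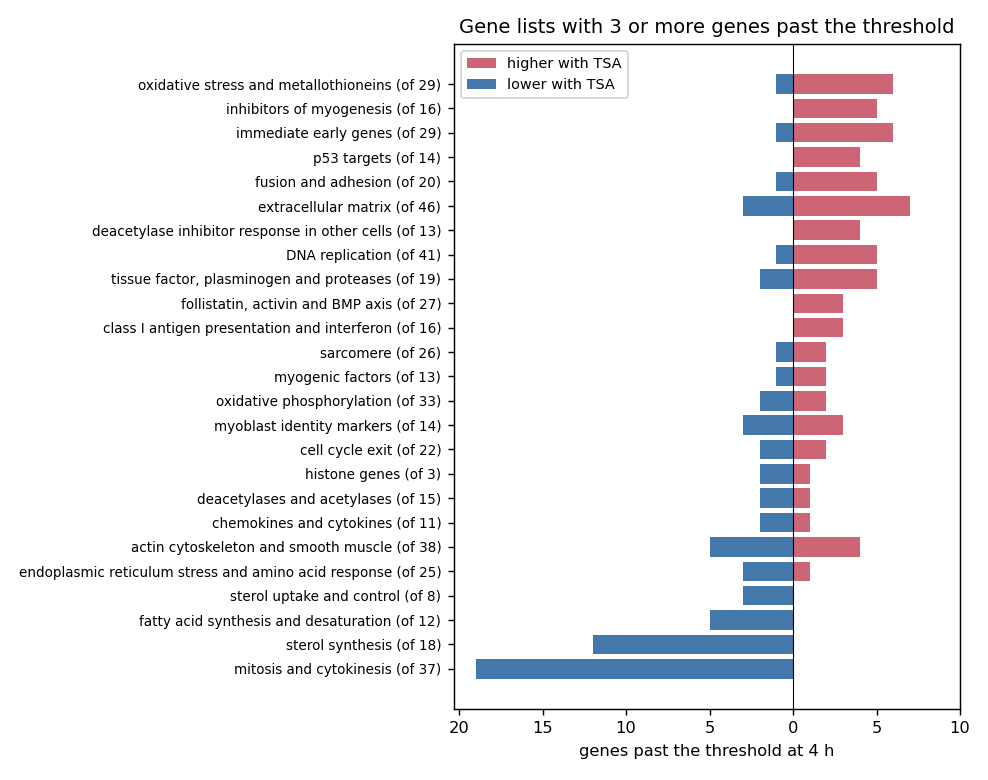
Number of genes past the threshold at 4 h in each gene list with 3 or more, to the right those higher and to the left those lower with TSA, with the number of genes measured in brackets. Mitosis (19 of 37) and sterol synthesis (12 of 18) extend farthest to the left with none to the right; over all genes 5.98% were higher and 5.91% lower.

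The TSA effect at 4 h differed from that at 0 h in other genes too. Gas1, a membrane protein of growth-arrested cells, stood at 3949 and 4813 in control and 1411 and 1149 with TSA at 0 h, and at 1608 and 1850.3 in control and 1829 and 1914 with TSA at 4 h (difference 1.78 ± 0.25, adjusted p = 0.00688). The gap of 0 h had closed while the control level fell (-1.27 ± 0.18, adjusted p = 0.00351). Cx3cl1, the chemokine fractalkine, went the other way, with 297 and 209.9 in control and 998 and 1117 with TSA at 0 h and 916 and 1203 in control and 696 and 898 with TSA at 4 h (difference -1.97 ± 0.23, adjusted p = 0.00516). Here control cells rose to the level of TSA-treated cells (1.61 ± 0.16, adjusted p = 0.000708), which themselves were at -0.36 ± 0.16, adjusted p = 0.261. Some effects were past the threshold at 4 h and not at 0 h, with a difference that passed. The potassium channel Kcnn4 stood at 2060.3 and 2100.4 in control and 891 and 799 with TSA at 4 h (log2 change -1.18 ± 0.13, adjusted p = 0.000105) against an effect of -0.11 ± 0.13 at 0 h (difference -1.07 ± 0.19, adjusted p = 0.0173), and Tob1 differed by -1.37 ± 0.25, adjusted p = 0.0210. The calls of these last 2 differences were lost in 6 and 4 of 8 fits that left out 1 array, and those of Gas1 and Cx3cl1 in none.

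Between 4 and 12 h the TSA effect changed for 109 probe sets (1.46%), 67 upwards (0.899%) and 42 downwards (0.564%). This comparison shares the arrays of 4 h with those above. The effect on Ckb went from 2.44 ± 0.13 to 0.50 ± 0.13 (difference -1.93 ± 0.18, adjusted p = 0.000933), and that on Fst from 2.56 ± 0.19 to 0.67 ± 0.19 (difference -1.90 ± 0.27, adjusted p = 0.00650). The effects on Hcfc1r1 (difference -1.24 ± 0.15, adjusted p = 0.00349) and on Agrn, the organiser of the nerve-muscle synapse (higher at 4 h, log2 change 1.20 ± 0.11, adjusted p = 1.77e-05; difference -1.02 ± 0.15, adjusted p = 0.00750), also became smaller, whereas the effect on Tnni1 went from 2.07 ± 0.34 to -1.41 ± 0.34 (difference -3.48 ± 0.48, adjusted p = 0.00508). Among lowered genes the small GTPase Rhoj, at 718 and 736 in control and 216 and 214 with TSA at 4 h (log2 change -1.29 ± 0.11, adjusted p = 1.67e-05), had an effect of -0.04 ± 0.11 at 12 h (difference 1.26 ± 0.16, adjusted p = 0.00349). Hmga2, a chromatin protein of growing cells, went from log2 change -0.88 ± 0.13, adjusted p = 0.000636 at 4 h to 0.49 ± 0.13 at 12 h (difference 1.37 ± 0.18, adjusted p = 0.00349), and Hnrnph1 to 0.09 ± 0.11 (difference 1.13 ± 0.15, adjusted p = 0.00351). Of the division genes Aspm, a spindle pole protein, stood at 221 and 297 in control and 13.3 and -17.8 with TSA at 4 h (log2 change -1.45 ± 0.18, adjusted p = 0.000260), and at 12 h at 308 and 217 in control and 541 and 498 with TSA (difference of the effects 2.18 ± 0.26, adjusted p = 0.00349). These 9 differences passed in each fit that left out 1 array, but 0 probe sets passed when the 8 arrays of these times were fitted alone, where 1199 had an unadjusted p under 0.05.

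Markers of other cell types were measured beside the genes above that are known from other tissues. No measured marker was at or below 0 on all 4 arrays. Only probe sets with a mean of at least 144.862 counted as measured, and this filter largely fixes that outcome. It therefore does not show whether the listed markers in general were detected. Of 19 listed red cell markers 5 were bright enough to test. Of these 2 rose, Hba-a1 and Car2, and 3 did not pass, where 5.98% of all genes rose. The median log2 change of the 5 was 0.04. Their summed intensity was 3218 and 3354 in control and 8428 and 7290.3 with TSA, and its rise came from Hba-a1 and Car2. Of 9 neuronal markers 1 rose, Uchl1 (summed 18702 and 19091 in control, 23180 and 21618 with TSA). Of 9 keratinocyte and epithelial markers 2 rose, Sprr1a and Krt10 (summed 5449.8 and 5202 in control, 11440 and 7634 with TSA), the latter lost without any 1 of control array 1, control array 2 and TSA array 1. None of the 3 adipocyte, 5 bone and cartilage, 7 leukocyte and 2 endothelial markers measured passed. Their sums were 2760.1 and 2881 in control and 1815 and 2329 with TSA for adipocytes, and 2989 and 2198 against 1894 and 2299 for bone and cartilage. They were 3640.5 and 3378 against 2225 and 3474 for leukocytes, and 1680.2 and 1389 against 1089 and 1524 for endothelium. In none of these 4 lists was a TSA array above both controls. Of 14 myoblast markers 3 rose (Myod1, Myf5 and Cdh15) and 3 fell, Vcam1 among them, where 5.98% of all genes rose and 5.91% fell. The median log2 change of the 14 was -0.04, and their sum was 21609 and 23794 in control and 22778 and 23675 with TSA. The part of other cell types in the raised genes was not tested.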

How the data were processed

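The array signals are the deposited intensities, linear values per probe set, some of them below 0, that stand at a common level over the arrays. The tool that made them and the background step are not given in the sources used here. The 66 control probe sets among 12488 were dropped, and 10833 of the other 12422 were mapped to 1 gene, 396 to several and 1193 to none by the platform annotation. Probe sets of several genes or none stayed in the fit but were not named, and 10817 symbols were updated through RefSeq.

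Values below 0 were set to 0, 137.689 (the 40th percentile) was added and log2 was taken of the deposited intensities. The 7453 probe sets with a mean of at least 144.862 entered the linear model of limma 3.58.1 (R 4.3.3), which gave each treatment and time its own mean over 20 arrays (10 residual and 2.45 prior degrees of freedom). P-values were adjusted by the Benjamini-Hochberg method over all of them. Only 2 arrays per group limit the precision. The fit was tested on simulated data. Promoters, tables and figures used Python 3.11.15, pandas 2.3.3, numpy 2.4.6 and matplotlib 3.10.9.

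The lists and the genes examined were chosen with earlier results of these data known. Named genes came from a fixed set, from those of largest log2 change or intensity difference, and from the members of each list with the smallest p. Members that did not pass, the examples of differences between times and genes without a list were added with their values seen. Each comparison was repeated with quantile normalization, median centring, other pseudocounts and filters, a generalized log2, trended or robust variances, fewer arrays, a replicate block, and without each array in turn. The 5 correlations of same-numbered deviations ran from -0.0997 to 0.228, and 3 of them were below 0. So few values cannot show whether replicate numbers paired the arrays, which the main fit treated as unpaired.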

Additional observations from a re-analysis of the deposited data

Results flagged for a closer look

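The effect of TSA at 4 h differed from that in growth medium at 0 h for 120 probe sets by the test of the difference itself, in the fit of all 20 arrays with limma. In log2 units the effect at 4 h minus that at 0 h was 1.70 for Cdk1, 1.14 for Mad2l1, 1.33 for Cdc20 and 2.21 for Hmgb2, all genes of dividing cells. It was 1.48 for the replication gene Rpa2 and 1.78 for Gas1. The call of Rpa2 was lost on the generalized log2 scale (adjusted p = 0.376) and with the pseudocount at the 30th percentile (0.138). It was also lost whenever 1 array was left out. In the other direction the effect at 4 h minus that at 0 h was -1.97 for Cx3cl1, -1.07 for Kcnn4 and -1.37 for Tob1. The calls of Kcnn4, Tob1 and Cdc20 were lost in 6, 4 and 4 of the 8 fits that left out 1 array.

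Between 4 and 12 h the effect differed for 109 probe sets. The effect at 12 h minus that at 4 h was -1.93 for Ckb, -1.90 for Fst, -1.24 for Hcfc1r1, -1.02 for Agrn and -3.48 for Tnni1, which TSA had raised at 4 h. For genes lowered at 4 h it was 1.13 for Hmgcs1, 1.26 for Rhoj, 1.37 for Hmga2, 1.13 for Hnrnph1 and 2.18 for Aspm. The call of Hmgcs1 was lost in 7 of the 8 fits that left out 1 array.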

How the results depend on the processing

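The count of 846 probe sets at 4 h was 81 with only the 4 arrays of that time in the fit, 435 to 584 when 1 array was left out, 777 with a replicate block and 781 to 971 under every other alternative. Median centring moved the split of higher against lower from 418 and 428 to 431 and 350. The 120 differences between 4 and 0 h became 204 without a filter, 210 with the filter at the 60th percentile, 2 with only the 8 arrays compared, 71 with the block and 18 to 72 without 1 array. The 109 differences between 12 and 4 h became 185 with the pseudocount at the 60th percentile, 177 without a filter, 217 with the filter at the 60th percentile, 189 with a trended variance, 0 with only the 8 arrays compared (1199 at an unadjusted p under 0.05), 49 with the block and 25 to 101 without 1 array. The causes were not tested. Of 129 genes with a name in the text that passed at 4 h, 98 also passed in each fit without 1 array and 34 with the 4 arrays fitted alone.

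Some genes that did not pass changed sign. Median centring put Tm7sf2 at 0.0208 and Hmgb2 at 0.00723. When 1 array was left out, the log2 change ranged from -0.0625 to 0.0383 for Tm7sf2, -0.162 to 0.111 for Hmgb2, -0.423 to 1.11 for Myog, -0.172 to 1.58 for Cdkn1a, -0.156 to 0.297 for Mstn, -0.307 to 0.0471 for Ccn1, -0.240 to 0.381 for Id3 and -0.0757 to 0.146 for Gstm5.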

Other observations

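Genes of the actin cytoskeleton moved in both directions at 4 h, with 4 higher and 5 lower of 38. Over all genes 5.98% were higher and 5.91% lower. Csrp2, a LIM protein of smooth muscle, stood at 2587 and 2267 in control and 6041 and 6266 with TSA (log2 change 1.30 ± 0.22, adjusted p = 0.00220), and Rdx, radixin, which ties actin to the membrane, at 2538 and 2557 in control and 1491 and 1570.1 with TSA (log2 change -0.69 ± 0.14, adjusted p = 0.00573). In both genes the treatments were well apart. The count of lowered genes was 2 without either control array and 3 without either TSA array.

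Of 19 genes of tissue factor, plasminogen and proteases 5 rose and 2 fell, where 5.98% of all genes rose and 5.91% fell. Cathepsin L, Ctsl, stood at 12338 and 10875 in control and 19415 and 16981 with TSA (log2 change 0.64 ± 0.13, adjusted p = 0.00518), and Timp3, an inhibitor of matrix proteases, at 2568 and 2706 in control and 5458 and 5152 with TSA (log2 change 0.97 ± 0.24, adjusted p = 0.0199). Plaur, the receptor of urokinase, fell with F3 and stood at 2924 and 3127 in control and 1382 and 1303 with TSA (log2 change -1.10 ± 0.29, adjusted p = 0.0281). The count of raised genes was 1 without control array 1, 0 without control array 2 or TSA array 1 and 4 without TSA array 2, and the count of lowered genes was 1 without any 1 array.

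Of 33 genes of oxidative phosphorylation 2 rose, Uqcrq (log2 change 0.83 ± 0.13, adjusted p = 0.000992) and Cox6a1 (log2 change 0.86 ± 0.14, adjusted p = 0.00153), and 2 fell, among them Sdhd (log2 change -0.64 ± 0.13, adjusted p = 0.00513), shares near those of all genes. The stress response of the endoplasmic reticulum had 1 of 25 genes higher and 3 lower, where 5.98% of all genes rose and 5.91% fell. The median log2 change of the 25 was -0.06. Ddit3, the factor CHOP, fell, from 534 and 584 in control to 240.5 and -76.9 with TSA (log2 change -1.61 ± 0.34, adjusted p = 0.00864). Its call was lost without control array 2, and the calls of the other lowered genes did not hold throughout when 1 array was left out. Nupr1, a stress-induced nuclear protein, was the gene that rose, at 81.3 and 169.8 in control and 454 and 369 with TSA (log2 change 1.08 ± 0.17, adjusted p = 0.00111).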
